A study of Mus musculus with 80 samples.

Results

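H3K27ac peaks were compared between D2, the second day of chemical reprogramming, and D0, the mouse embryonic fibroblasts (MEFs) from which it started. The members were all peaks on chromosomes 1 to 19, X and Y of the deposited H3K27ac lists of these stages, 22962 at D2 and 37784 at D0, 60746 in all. They are part of 197637 H3K27ac peaks over 8 stages and of 710560 peaks of 5 histone marks in the series. A D2 peak that no D0 peak overlapped by at least 1 bp is called gained, a D0 peak that no D2 peak overlapped is called lost, and the others are called kept.

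Both stages were bulk cultures profiled by CUT&Tag, in which a transposase tethered to an antibody cuts and tags the DNA beside a mark. The D2 cells had spent 2 days in a reprogramming medium whose contents the labels do not list. The D0 cells were in MEF medium with serum. Cells of both stages were MEFs of the strain labelled 129XOG2, taken from E13.5 embryos and used at passages 1 to 3. OG2 animals carry a reporter of green fluorescent protein under Pou5f1 regulatory sequence. The labels name 2 libraries per stage, but there is 1 list per stage, so no difference below has a replicate spread or a test. In bulk cells, fewer cells with a mark and less of the mark per cell cannot be told apart.

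H3K27ac is acetylation of lysine 27 of histone H3, laid down by the acetyltransferases p300 and CBP at active promoters and enhancers. The same lysine can instead carry methyl groups from Polycomb complexes, as H3K27me3, at silenced developmental genes. Enhancers are more specific to a cell type than promoters are, and fibroblast enhancers are known for binding sites of the AP-1, TEAD and RUNX factors. H3K4me3 marks promoters that are active or poised, and H3K18la is histone lactylation, which also occurs at active regions.

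Promoters of genes whose H3K27ac calls were gained, lost or kept at the gene start are shown first. Capitals mark CpG dinucleotides, of which gained and lost starts held fewer than kept ones. Each promoter covers 250 bases before to 50 bases after the gene start in RefSeq (GRCm38.p6, the assembly from which mm10 was made), written 5′ to 3′ along the strand of the gene. Ocln, a tight junction gene (chr13:100552669-100552968, minus strand), and Batf, an AP-1 family subunit (chr12:85686470-85686769, plus strand), gained a call. Col3a1, which encodes a fibrillar collagen chain (chr1:45311288-45311587, plus strand), and Ankrd1, a target of the YAP coactivator (chr19:36119795-36120094, minus strand), lost their call. Klf6, an immediate early zinc finger factor (chr13:5861239-5861538, plus strand), kept its call.
Ocln (gained): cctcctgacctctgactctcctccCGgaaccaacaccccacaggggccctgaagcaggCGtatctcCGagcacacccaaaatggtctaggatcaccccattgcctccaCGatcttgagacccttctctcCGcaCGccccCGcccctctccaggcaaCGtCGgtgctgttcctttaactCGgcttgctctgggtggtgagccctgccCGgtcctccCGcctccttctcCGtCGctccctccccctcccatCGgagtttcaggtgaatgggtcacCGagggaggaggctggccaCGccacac
Batf (gained): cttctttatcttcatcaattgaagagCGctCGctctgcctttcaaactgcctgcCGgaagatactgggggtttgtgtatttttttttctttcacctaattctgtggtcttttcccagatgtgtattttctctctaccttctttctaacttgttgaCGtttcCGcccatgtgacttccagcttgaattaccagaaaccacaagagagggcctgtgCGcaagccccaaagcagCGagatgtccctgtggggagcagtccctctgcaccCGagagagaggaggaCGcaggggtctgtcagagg
Col3a1 (lost): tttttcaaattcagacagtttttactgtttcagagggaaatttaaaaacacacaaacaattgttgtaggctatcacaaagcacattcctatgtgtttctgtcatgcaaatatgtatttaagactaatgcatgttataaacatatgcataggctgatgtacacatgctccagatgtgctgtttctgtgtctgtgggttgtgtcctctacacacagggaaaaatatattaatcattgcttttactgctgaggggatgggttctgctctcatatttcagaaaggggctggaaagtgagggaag
Ankrd1 (lost): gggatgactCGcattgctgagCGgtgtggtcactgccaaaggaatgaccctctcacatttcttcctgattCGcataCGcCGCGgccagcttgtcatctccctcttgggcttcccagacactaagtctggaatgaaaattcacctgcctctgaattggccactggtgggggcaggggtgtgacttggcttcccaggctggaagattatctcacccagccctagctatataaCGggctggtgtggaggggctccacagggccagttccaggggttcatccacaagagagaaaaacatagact
Klf6 (kept): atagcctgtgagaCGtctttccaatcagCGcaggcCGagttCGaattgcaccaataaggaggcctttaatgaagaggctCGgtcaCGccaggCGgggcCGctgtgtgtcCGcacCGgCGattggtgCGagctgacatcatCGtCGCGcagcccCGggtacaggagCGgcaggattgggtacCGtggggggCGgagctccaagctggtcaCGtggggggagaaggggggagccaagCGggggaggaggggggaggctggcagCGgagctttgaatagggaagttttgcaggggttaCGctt
The 5 promoters were chosen after their calls were seen. They hold 17, 9, 0, 7 and 23 CpGs in that order, where the class medians were 15 at gained, 16 at lost and 22 at kept starts. Both lost promoters shown lie below the lower quartile of lost starts, 8 CpGs. The string GGAATG, the core of the TEAD motif, occurred on either strand once in the Col3a1 and 2 times in the Ankrd1 promoter, and in 13.6% of all 21238 promoters searched. The ETS string CCGGAAG occurred 1 time in the Batf promoter and in 11.6% of all promoters. None of the 5 held the AP-1 string TGANTCA, which 6.99% of all promoters held. These are matches of letters and not measured binding.

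H3K27ac calls covered 17.5 Mb at D2 and 29.1 Mb at D0. Of the covered bases at D2, 70.3% lay in a D0 peak, and of those at D0, 42.2% lay in a D2 peak. In all, 5588 of 22962 D2 peaks were gained (24.3%, 95% Wilson interval 23.8 to 24.9), and 20429 of 37784 D0 peaks were lost (54.1%, 53.6 to 54.6). The intervals given here reflect counting alone and treat neighbouring regions as independent. Peaks within 1.0 kb of either end of a protein-coding gene are called gene-near and the others distal. Few gene-near peaks changed: 5.98% of those at D2 were gained (589 of 9851) and 20.2% of those at D0 were lost (2344 of 11625). Distal peaks changed far more often, with 38.1% of those at D2 gained (4999 of 13111) and 69.1% of those at D0 lost (18085 of 26159). Distal peaks made up 89.5% of the gained and 88.5% of the lost peaks, against 46.7% of the kept peaks in the D2 list and 46.5% in the D0 list.

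**Figure D1:**
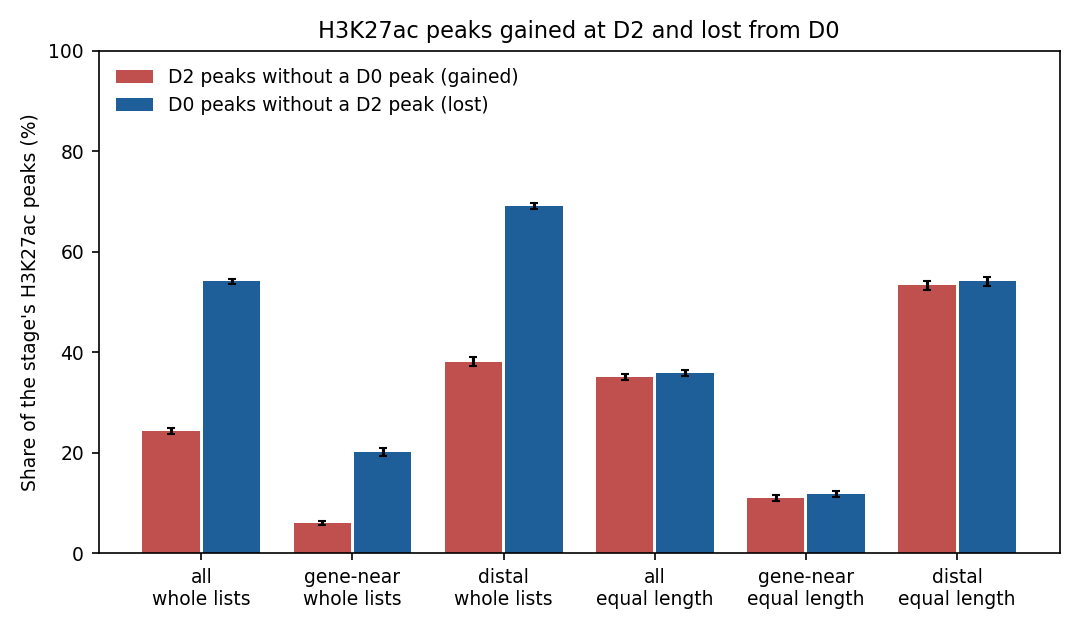
Share of H3K27ac peaks (%, vertical axis) gained at D2 (red, of D2 peaks) or lost from D0 (blue, of D0 peaks), for all, gene-near and distal peaks, in the whole lists and in lists cut to equal length by −log10 p; error bars are 95% Wilson intervals. Gained shares are below lost shares in the whole lists (24.3% against 54.1% for all peaks), and the shares lie within 1 percentage point of each other after this cut, which by itself brings the totals together.

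The D0 list is the longer one, so more of its peaks can lack a partner. When the D0 list was cut to its 22962 peaks with the highest −log10 p, the number in the D2 list, 35.1% of D2 peaks were gained and 35.8% of D0 peaks were lost. The total shares must come out near each other under such a cut, so they say nothing of a net change. At equal length the gained and lost shares were 11.0% and 11.8% for gene-near peaks and 53.3% and 54.1% for distal peaks. The contrast between distal and gene-near regions was thus present in both directions at both lengths. With the D0 list cut by fold enrichment instead, the gained and lost shares were 18.2% and 11.4% for gene-near and 57.5% and 60.8% for distal peaks, so the direction at gene-near peaks depended on the cut. The background around peaks that had no denser local background was 3.32 fragments per position at D2 and 2.98 at D0. The median pileup at the summit was 33.0 fragments at D2 and 39.0 at D0, with 42.0 and 63.0 at gene-near and 28.0 and 32.0 at distal peaks. The median local background over all peaks was 7.0 fragments per position at D2 and 7.66 at D0. The shorter D2 list thus came with lower summits, while its background was the higher one by the most common value and the lower one by the median. What part sequencing or antibody efficiency had in this was not tested.

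Gained and lost peaks were narrower and weaker than kept peaks of the same list. Gained peaks had a median width of 476 bp, a median fold enrichment of 3.83 and a median −log10 p of 8.84, against 764 bp, 4.39 and 13.9 for the kept peaks of the D2 list. Fold enrichment and −log10 p are the authors' values for each peak and are compared here only within a list. Lost peaks had a median width of 500.0 bp, a fold enrichment of 4.10 and a −log10 p of 11.0, against 947 bp, 5.41 and 24.3 for the kept peaks of the D0 list. Few of them lay close to a peak of the other stage: 10.1% of gained peaks lay within 1.0 kb of a D0 peak, at a median distance of 16.8 kb, and 6.64% of lost peaks lay within 1.0 kb of a D2 peak, at a median of 19.7 kb.

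Because strength and place go together, each list was split by −log10 p into 5 strength classes of equal size. From the weakest to the strongest class, 51.6%, 37.5%, 23.2%, 8.32% and 0.980% of D2 peaks were gained. The corresponding shares of D0 peaks lost were 86.5%, 77.8%, 64.5%, 36.4% and 5.16%. In every class of both lists the distal share exceeded the gene-near share, with intervals that did not overlap. In the strongest class 3.73% of distal and 0.248% of gene-near D2 peaks were gained, and 15.3% of distal and 1.84% of gene-near D0 peaks were lost. In the weakest class the gained shares were 56.0% distal and 29.3% gene-near, and the lost shares 87.6% distal and 76.4% gene-near.

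**Figure D2:**
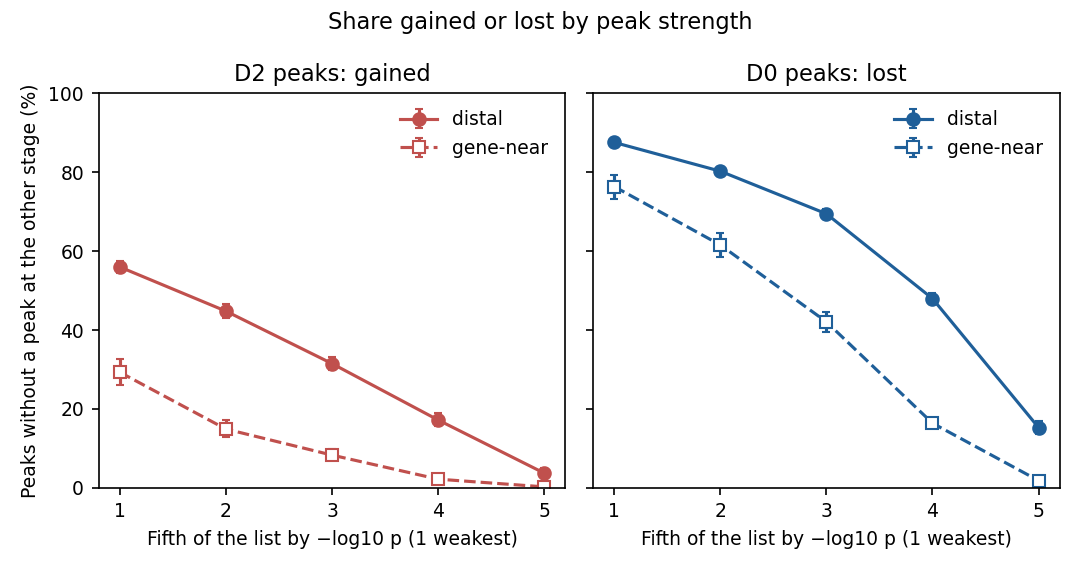
Share of peaks without a peak at the other stage (%, vertical axis) by strength class, 5 equal classes of the list in −log10 p (horizontal axis, 1 weakest), for D2 peaks gained (left) and D0 peaks lost (right); filled circles are distal and open squares gene-near peaks, with 95% Wilson intervals. Both shares decline with strength, and distal peaks lie above gene-near peaks in each class, as in the strongest one, where 15.3% of distal and 1.84% of gene-near D0 peaks were lost.

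Distal regions under H3K4me3 changed less often. Among distal D2 peaks, 15.9% of those under an H3K4me3 peak of D2 and 53% of those without one were gained. Among distal D0 peaks, 36.8% of those under an H3K4me3 peak of D0 and 78.1% of those without one were lost. This difference was present in each strength class in both directions, with 1.27% against 24.3% gained and 7.44% against 36.3% lost in the strongest.

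Gene-near regions that changed in H3K27ac lay under H3K4me3 less often than kept ones. Gained gene-near regions lay under an H3K4me3 peak in 78.4% of cases at D2 and 66.6% at D0, and the 2344 lost ones in 71.1% at D2 and 68.5% at D0, against 98.7% and 97.9% of the kept ones. Of gene-near D2 peaks, 4.81% of those with and 52.9% of those without H3K4me3 were gained. The shares were 16.7% at D2 and 7.52% at D0 for gained distal regions and 12.6% at D2 and 11.5% at D0 for lost ones. At kept distal regions they were 54.1% at D2 and 44.3% at D0. The H3K4me3 list was itself longer at D2 (21804 peaks) than at D0 (18944 peaks). H3K18la lay at 46.4% of the kept gene-near regions at D2 and 65.6% at D0, and at 7.64% of the lost ones at D2 and 20.1% at D0. The H3K18la list of D2 (7009 peaks) was shorter than that of D0 (13832 peaks), and its peak names carry a library number, so it may stand for 1 library. H3K27me3 covered 36.8% of the gained gene-near regions at D2 and 48.0% at D0, more than the 16.5% and 25.2% of the lost and the 8.45% and 16.3% of the kept gene-near regions. Its list too was shorter at D2 (14438 peaks) than at D0 (19842 peaks).

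**Figure D3:**
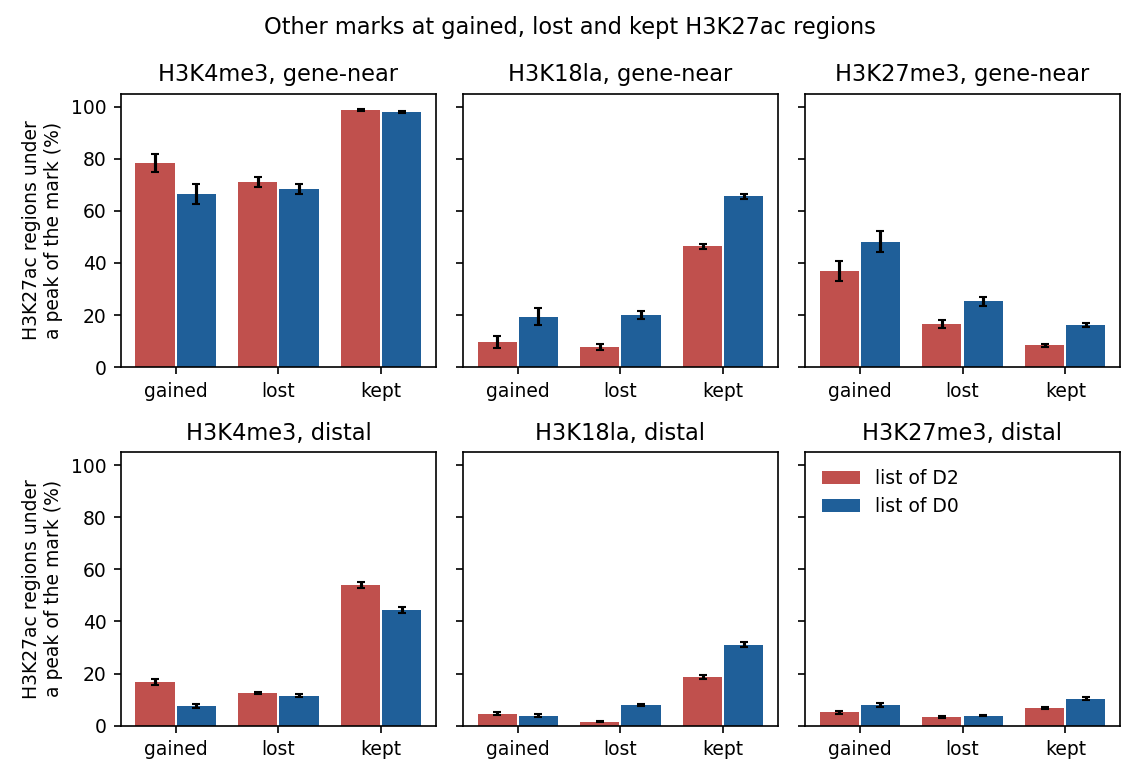
Share of gained, lost and kept H3K27ac regions (%, vertical axes) under a peak of H3K4me3, H3K18la or H3K27me3, in the list of D2 (red) and of D0 (blue), for gene-near (top) and distal (bottom) regions; error bars are 95% Wilson intervals. H3K4me3 covers 71.1% of lost gene-near regions at D2 and 68.5% at D0, and H3K27me3 is most frequent at gained gene-near regions (36.8% at D2, 48.0% at D0).

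Of 21887 protein-coding genes, 10664 had an H3K27ac peak at a gene end at D2 and 11971 at D0. A gene-end peak was gained by 430 genes, 4.34% of the 9916 without one at D0, and lost by 1737 genes, 14.5% of the 11971 with one. At equal length by −log10 p the counts were 884 gained (7.98%) and 1024 lost (9.48%), and at equal length by fold enrichment 1603 gained and 964 lost, so the direction of the difference depended on the cut. Equal length below means the cut by −log10 p. At annotated gene starts alone, 315 genes gained (4.17% of 7559) and 1262 lost a call (12.7% of 9933). A gene can also change because a peak present at both stages crosses the edge of the window at only 1 of them, which held for 34 of the 430 gained and 115 of the 1737 lost genes. Gained genes had H3K27me3 at a gene end in 56.0% of cases at D2 and 67.4% at D0, against 9.69% and 18.1% for genes with H3K27ac at both stages. Gained genes had H3K4me3 at a gene end in 85.1% of cases at D2 and 73.3% at D0, and lost genes in 82.4% at D2 and 79.7% at D0, against 99.3% and 99% for genes with H3K27ac at both stages.

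The combination of H3K4me3 and H3K27me3, known as bivalent chromatin at developmental genes, was frequent among gained genes: 52.8% carried both at D2 and 53.7% at D0. Where H3K4me3 was present at D0, the gained share was similar with and without H3K27me3, with overlapping intervals. Of the genes without H3K27ac at D0, 22.1% of the 1045 with both marks at D0 (19.7 to 24.7), 23.0% of the 365 with H3K4me3 alone (19 to 27.6), 4.95% of the 1191 with H3K27me3 alone and 0.766% of the 7315 with neither mark gained an H3K27ac call. Among genes with H3K27ac at D0, loss was more frequent with both marks (24.2% of 2415) than with H3K4me3 alone (8.81% of 9097), and was 76.3% with H3K27me3 alone and 76.8% with neither mark. Within strength classes of the D0 peak, the contrast between both marks and H3K4me3 alone was small: from the weakest class up, 63.2% against 62.1%, 47.4% against 48.1%, 34.5% against 33.1% and 15.2% against 12.4%. In the strongest class loss was 4.32% with both marks and 1.85% with H3K4me3 alone, and their intervals (3.13 to 5.92 and 1.54 to 2.23) did not overlap.

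Genes were next read by lists of known roles. Together, 341 of 507 listed genes had a D0 call, and 74 of them lost it (21.7%, beside 14.5% of all genes with a D0 call). In 71 of the 74, a lost peak lay behind the lost call. Of the 166 without one, 18 gained a call (10.8%, beside 4.34% of all genes). At equal length, 9.48% of all genes with a D0 call lost it and 7.98% of those without one gained one.

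Genes of fibroblast and mesenchymal identity were among those that lost H3K27ac. Over the matrix, fibroblast identity and mesenchymal factor lists, 2 of 13 genes without a D0 call gained one and 18 of 53 with a D0 call lost it (34.0%). Of the 18, 16 had an H3K4me3 peak at D2 and 17 at D0, and 9 had no gene-end H3K27ac call at any later stage. Among 18 transcription factors of mesenchyme called at D0, 8 lost the call. Ebf1, which directs stromal and B cell programmes, had no gene-end peak at D2 and a D0 peak of 4.63-fold enrichment at chr11:44616614-44617292, with none at any later stage. Osr2, a zinc finger factor of limb and palate mesenchyme, had none at D2 and 4.11-fold at D0 (chr15:35296075-35296659), and was called again at D4 and D12. Snai1, a repressor of epithelial genes, had none at D2 and 3.82-fold at D0, beyond the end of the gene (chr2:167543084-167544507). Foxd1, Meox1, Prrx2 and Zeb2 also lost it, with D0 values between 2.98-fold (Prrx2) and 4.90-fold (Foxd1). Zeb2 had a D2 peak at another annotated start. Twist1, Twist2, Snai2, Zeb1, Runx2 and Tbx18, factors of the same kind, had a gene-end call at both stages. Alx1, a homeobox factor of craniofacial mesenchyme, had 4.98-fold at D2 and none at D0. At equal length 1 factor gained a call (Alx1) and 5 of 15 lost one, Foxd1, Meox1 and Prrx2 no longer among them.

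Of 21 matrix genes called at D0, 6 lost the call (28.6%): Col3a1, Dcn, Fbln1, Lox, Thbs2 and Tnc. Col3a1 had none at D2 and 3.81-fold at D0, in a peak over the promoter shown above (chr1:45311441-45311854). Lox, the enzyme that crosslinks collagen and elastin, had none at D2 and 4.66-fold at D0. Fbln1, which encodes the matrix protein fibulin 1, had none at D2 and 4.87-fold at D0, and no call later. The other 5 lost matrix genes had a gene-end call again at some later stage, Col3a1 at D4 and D6. Collagen I (Col1a1 and Col1a2), fibronectin (Fn1), fibrillin (Fbn1) and Sparc had a call at both stages. Fap, a fibroblast surface protease, had 3.22-fold at D2 and none at D0. Of 14 fibroblast identity genes called at D0, Cnn1, Eng, Ly6a and Tagln lost the call, and none of the 4 had one at any later stage. Tagln and Cnn1 encode actin-binding proteins of contractile cells, Eng a TGF-β coreceptor and Ly6a the surface antigen Sca-1. Vim, Thy1, Cd44, Cdh2 and Acta2 kept theirs. At equal length 3 matrix genes gained a call (Col6a1, Fap and Postn) and 5 of 18 lost one, all but Dcn of the 6 above. Of the identity genes 1 gained (Itga5) and 2 of 11 lost a call at equal length (Ly6a and Tagln).

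Signalling genes of the fibroblast state were split in the same way. In the TGF-β list the ligands Tgfb1 and Tgfb3, the latent binding protein Ltbp2, the feedback inhibitor Pmepa1 and the corepressor Tgif1 lost the call, 5 of 17 (29.4%). At equal length Smad3 and Smad7 were gained, and the same 5 were lost, of 15. Tgfb1 had none at D2 and 3.31-fold at D0 (chr7:25687359-25688341), and Tgfb3 none at D2 and 3.44-fold at D0 (chr12:86078930-86079691). The receptors Tgfbr1, Tgfbr2 and Tgfbr3 and the mediators Smad2, Smad3, Smad4 and Smad7 had a call at both stages in the whole lists. Tgif1 had a D2 peak at another of its annotated starts. Among 18 genes of the YAP and TEAD list, 3 lost the call (16.7%, near the 14.5% of all genes). They were the targets Ankrd1 (none at D2, 5.11-fold at D0) and Ccn1 (none at D2, 2.12-fold at D0), and Amotl1, a binding partner of YAP. Amotl1 had a D2 peak at an annotated start inside the gene. Yap1, Wwtr1, Ccn2 and all 4 TEAD genes kept a call. At equal length Tead3 was gained and 1 of 15 was lost, Ankrd1, beside 9.48% of all genes lost at that length. In the NF-κB list 4 of 13 lost it (30.8%, beside 14.5% of all genes): the chemokines Ccl7, Cxcl2 and Cxcl5 and the adhesion molecule Icam1. The 9 that kept theirs included the chemokines Cxcl1 and Cxcl12 as well as the subunits Rela, Relb and Nfkb1. At equal length Vcam1 was gained and 1 of 9 was lost, Cxcl2, so the other 3 losses ended. All 12 genes of the BMP and Id list and all 27 ribosomal protein genes called at D0 kept their call. At equal length Grem1 of the BMP list was gained, and no gene of either list was lost.

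Among AP-1 genes, Batf and Fosb gained a call, 2 of 3 without one at D0 (66.7%, beside 4.34% of all genes). Atf3 lost one, 1 of 9 called at D0 (11.1%, beside 14.5% of all genes). Fos, Fosl1, Fosl2, Jun, Junb, Jund, Maff and Mafk had one at both stages. Fosb, an immediate early partner of Jun, had a D2 peak of 2.63-fold at its start (chr7:19310114-19310475) and none at D0. Batf had 4.63-fold at D2 (chr12:85686723-85687235) and none at D0. Atf3, a stress-induced factor, had none at D2 and 3.33-fold at D0, and was called again at D8, D10 and D12. Of 12 immediate early genes called at D0, Ccn1 and Nr4a1 lost the call (16.7%, beside 14.5% of all genes). Nr4a1, a nuclear receptor, had a D2 peak at an annotated start inside the gene. Myc had a gene-end peak of 3.58-fold at D2 and none at D0, and its only later gene-end call was at D10. A D0 peak inside the gene, 1.83 kb from a gene end (chr15:61987019-61987584, 2.92-fold), counted as distal and was lost. At equal length the AP-1 calls were the same, 2 gained and 1 of 9 lost, and of the immediate early genes Myc and Srf gained a call and 1 of 10 lost it, Nr4a1.

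Hox genes, which carry positional identity in fibroblasts, changed in both directions. Of 27 without a call at D0, 5 gained one at D2 (Hoxa10, Hoxb1, Hoxb9, Hoxc9 and Hoxd9), and of 12 with one at D0, 9 lost it (among them Hoxa3, Hoxa4, Hoxa5, Hoxa6, Hoxa9, Hoxc6, Hoxd12 and Hoxd3). In the whole lists the gained share was 18.5% (exact interval 6.30 to 38.1), beside 4.34% of all genes. The lost share was 75% (exact interval 42.8 to 94.5), beside 14.5% of all genes. At equal length 8 gained and 5 of 5 lost a call. Over all genes at that length, 7.98% of those without a D0 call gained one and 9.48% of those with one lost it. Hoxa5 and Hoxa6 lie side by side and share 1 peak, so these are not independent genes. Hoxb1, the most 3′ gene of its cluster, had 4.51-fold at D2 and none at D0, and was called at each stage from D4 to D12. All 5 gained Hox genes had an H3K27me3 peak at D0, and 2 of them had one at D2. Of the 9 lost Hox genes 6 had one at D0 and 3 at D2. Of the 3 with H3K27ac at both stages, 3 had one at D0 and 1 at D2, and the H3K27me3 list was shorter at D2. At D2 8 of the 9 lost Hox genes had an H3K4me3 peak, and at D0 all 9 did. Hoxa10 had a peak near an annotated start in both lists, and the D0 peak of Hoxc6 overlapped a D2 peak outside its window.

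Few genes of the destination were called at D2. Of 22 pluripotency genes without a D0 call, 2 gained one (9.09%, beside 4.34% of all genes). Dppa5a, expressed in early germ and stem cells, had 4.37-fold at D2 and none at D0, and Pou5f1, the core pluripotency factor, had 2.15-fold at D2 and none at D0. Neither had a gene-end H3K4me3 peak at D2 or D0, or a gene-end H3K27ac call at D4 or D6. Both were called at D10, D12 and in iPSCs. Pou5f1 sequence in the OG2 reporter and at the endogenous gene cannot be told apart. Of 17 epithelial genes without a D0 call, Cdh1 and Ocln gained one. Cdh1, which encodes E-cadherin, had 5.33-fold at D2 (chr8:106603420-106603836) and none at D0, and was called at all 6 later stages. Ocln had 4.47-fold at D2, in a peak over the promoter shown above, and none at D0, and was called at D4, D8, D10 and D12. Both carried H3K4me3 and H3K27me3 at D2 and at D0. Elf3, Esrp2 and Spint1, also epithelial, lost a D0 call and were called again at D8, D10 and D12. At equal length the same 2 pluripotency genes gained a call, and of the epithelial genes 5 gained one and 1 of 1 lost it, Esrp2.

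Other lists held few changes. Their counts are to be read beside the 14.5% of all genes that lost a call, or 9.48% at equal length. In the retinoid list Lrat, which esterifies retinol, gained a call, and 3 of 6 genes lost theirs, among them the retinoic acid-binding protein genes Crabp1 and Crabp2, and none of 2 at equal length. Of the cartilage and bone regulators Dlx5, Sox5 and Sox6 lost the call, 3 of 7, and 0 of 4 at equal length, and Sox6 had a D2 peak at an annotated start. In the p53 and arrest list the apoptosis gene Bbc3, the cell cycle inhibitor Cdkn1c and Gadd45b lost it, 3 of 12 (25.0%), and 2 of 11 at equal length. Interferon genes lost it at Ifit1, Irf7 and Irf9, 3 of 16 (18.8%), and 2 of 14 at equal length. Stress genes lost it at Chac1 and Trib3, targets of the unfolded protein response, 2 of 13 (15.4%), and 1 of 12 at equal length, Chac1. Sterol genes lost it at Fdps and Srebf1, 2 of 15 (13.3%) at either length, and Srebf1 had a D2 peak at an annotated start. Acylation enzymes lost it at the acetyltransferase genes Kat2b and Kat6a, 2 of 17 (11.8%), and the same genes, 2 of 16, at equal length. The β-catenin targets lost it at the WNT inhibitors Nkd1 and Rnf43, 2 of 9 (22.2%), but the D0 peak of Rnf43 overlapped a D2 peak outside its window, and at equal length only Rnf43 remained, 1 of 6. The cyclic AMP list gained Fosb and lost Nr4a3, 1 of 10. A single gene was lost in the ERK feedback list (Dusp4, 1 of 13), the endoderm list (Sox7, 1 of 6) and the glycolysis list (Gapdh, 1 of 15), and Sox7 was not lost at equal length. Gapdh had a D2 peak at an annotated start, and was with Tbp among 2 of 11 housekeeping genes lost (18.2%), and 1 of 9 at equal length, Gapdh.

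**Figure D4:**
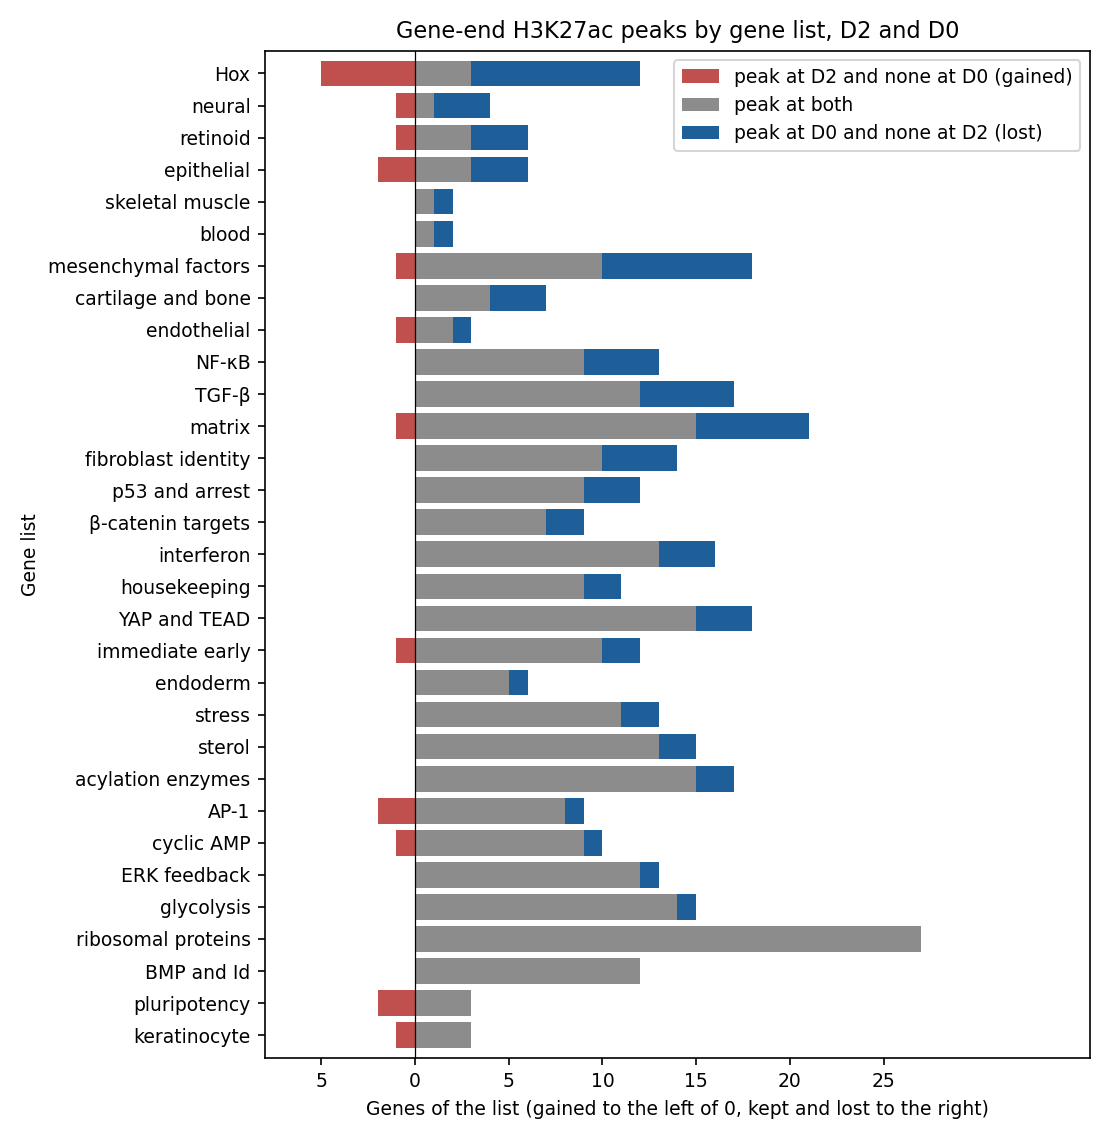
Number of genes per list (horizontal axis) with a gene-end H3K27ac peak gained at D2 (red, left of 0), at both stages (grey) or lost from D0 (blue); lists run down the page from the highest to the lowest share lost. Hox genes stand at the top with 9 of 12 lost and 5 gained, and ribosomal protein and BMP genes lost none.

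The labelled cell type was checked against marker lists in the same way. Of 16 fibroblast identity genes, 10 were called at D2 and 14 at D0. Of all 21887 protein-coding genes, 10664 were called at D2 and 11971 at D0. Markers of other cell types were called in 3 of 8 endothelial, 1 of 8 blood, 2 of 8 neural, 1 of 8 skeletal muscle and 4 of 8 keratinocyte genes at D2, against 3, 2, 4, 2 and 3 of 8 at D0. Tie1, Snap25 and Krt1 gained a call, and Tek, Spi1, Map2, Sox10, Tubb3 and Des lost one. Their part in the gene lists above was not tested. Gene bounds limit these counts, since Pdgfra, Pdgfrb and Prrx1 had no gene-end peak at either stage.

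The genes with the strongest single calls were mostly not list members. Among genes that gained a call, those with the highest D2 fold included Lrfn2, Fam184b, Dok6, Eif2s3y, Plcxd3, Rc3h2, Itih5, Slc24a2 and Pkd1, between 8.21-fold (Lrfn2) and 6.55-fold (Pkd1). Lrfn2 encodes a synaptic adhesion protein and Slc24a2 a potassium-dependent sodium and calcium exchanger. Fam184b (chr5:45639198-45639744) and Dok6, a docking protein of receptor tyrosine kinases, were called at all 6 later stages. The D2 peaks of Pkd1 and Rc3h2 overlapped D0 peaks that lay outside the gene-end window, so these were no gained regions. Among genes that lost a call, the 10 with the highest D0 fold were Dync2h1, Ifit1bl1, Entpd6, Zfp638, Diras2, Golph3l, Hormad1, Chchd6, Vamp9 and Nipa1, between 12.6-fold (Dync2h1) and 9.85-fold (Nipa1). Golph3l and Hormad1 share 1 peak. The D0 peak of Dync2h1, a motor subunit of cilia, overlapped a D2 peak outside the window, and Zfp638 had a D2 peak at an annotated start inside the gene. Entpd6, a nucleotidase, had a D0 peak of 10.9-fold and −log10 p 77.4 at its start (chr2:150748986-150749776), no peak at D2 and a peak at all 6 later stages.

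The strongest lost peaks by −log10 p were of another kind. The D0 list held 28 peaks under 400 bp wide with a fold enrichment over 10, and 13 of them were lost, with −log10 p up to 2793. The D2 list held 13 such peaks, and 0 were gained. Without these peaks, 24.4% of D2 peaks were gained and 54.1% of D0 peaks were lost.

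Counted by nearest gene, the 10 genes with the most gained and the 10 with the most lost distal peaks shared 1 name, Rbms3. Cdh11, a cadherin of mesenchymal cells, had 13 gained, 5 lost and 7 kept distal peaks (kept counted in the D0 list). BC052040 and Hdac9 had 11 gained each, Cadps, Cdh5, Jarid2 and Rbms3 10 each, Cd180 9, and Pard3b and Pik3r1 8 each. Hdac9, a class IIa histone deacetylase, had 11 gained, 5 lost and 6 kept, and 7 of its gained regions were called at D4. Cdh5, the endothelial cadherin, had 10 gained, 10 lost and 4 kept. Jarid2, an accessory subunit of Polycomb complex PRC2, had 10 gained, 7 lost and 4 kept. Cadps, which primes dense-core vesicles for release, had 10 gained, 0 lost and 1 kept, and gained a gene-end call too (5.15-fold, −log10 p 26.3 at D2, none at D0). Rbms3, an RNA-binding protein, had 10 gained and 24 lost. Of all distal D2 peaks, 38.1% were gained.

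Lost distal peaks were most numerous near Ctif, with 28, followed by Klf6 with 27, Lpp 26, Myc 25, Zfhx3 25, Rbms3 24, Zmiz1 23, and Ldlrad4, Runx1 and Slit3 22 each. These are counts and not shares, and 69.1% of all distal D0 peaks were lost. Each peak was given to its nearest protein-coding gene at any distance. Lost peaks lay up to 709 kb from a gene end for Myc and up to 621 kb for Klf6. Kept distal D0 peaks numbered 3 near Ctif, 5 near Zfhx3, 9 near Rbms3 and 8 near Zmiz1. Klf6 had 3 gained, 27 lost and 9 kept distal peaks, while its gene-end peak was called at both stages. Myc, the growth factor-responsive oncogene, had 2 gained, 25 lost and 7 kept ones, none of the lost called at D4 and 6 of them at D6. Lpp, a focal adhesion protein, had 2 gained, 26 lost and 16 kept, the lowest lost share of these genes and below that of all distal D0 peaks. Runx1, a RUNX family factor, had 2 gained, 22 lost and 5 kept, and Slit3, a secreted guidance ligand, had 1 gained, 22 lost and 1 kept. Ldlrad4, an inhibitor of TGF-β signalling, had 0 gained, 22 lost and 1 kept. The annotated spans of these genes differed widely, with 1057 kb for Rbms3, 8.90 kb for Klf6 and 5.02 kb for Myc, and the part of gene length in these counts was not tested.

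In the whole lists, more than 1 in 2 changed distal regions were not called at any later stage. Of the gained distal regions, 17.8%, 30.5%, 11.9%, 11.3%, 11.2% and 5.60% lay under an H3K27ac peak of D4, D6, D8, D10, D12 and iPSC, and 51.3% under none. Of the lost distal regions, 5.31%, 14.4%, 8.05%, 9.64%, 10.9% and 4.74% did, and 69.0% lay under none. For kept distal regions the shares were 43.0%, 62.2%, 41.4%, 37.7%, 37.0% and 20.2%, and 19.4% lay under none. From D4 to D10 gained distal regions were called more often than lost ones, with intervals that did not overlap, and at D12 the intervals overlapped (10.3 to 12.1 against 10.5 to 11.4). The same order was present at equal length, with 34.0% of gained and 20.6% of lost distal regions called at D6 and 13.3% and 13.0% at D12. At equal length 46.4% of gained and 60.8% of lost distal regions lay under no later peak. The D6 list (22598 peaks) was longer than those of D4 (16671) and D8 (17229).

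Gene-near regions were called later more often than distal ones in each class. Gained gene-near regions lay under a peak in 29.0% of cases at D4, 36.3% at D12 and 14.1% in iPSCs. Lost ones did in 19.7% at D4, 36.6% at D12 and 9.77% in iPSCs, and kept ones in 83.8%, 88.7% and 54.3%. Of the lost gene-near regions, 56.3% were called at 1 or more later stages, against 31.0% of the lost distal regions, and 22 of 2344 were called at all 6.

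**Figure D5:**
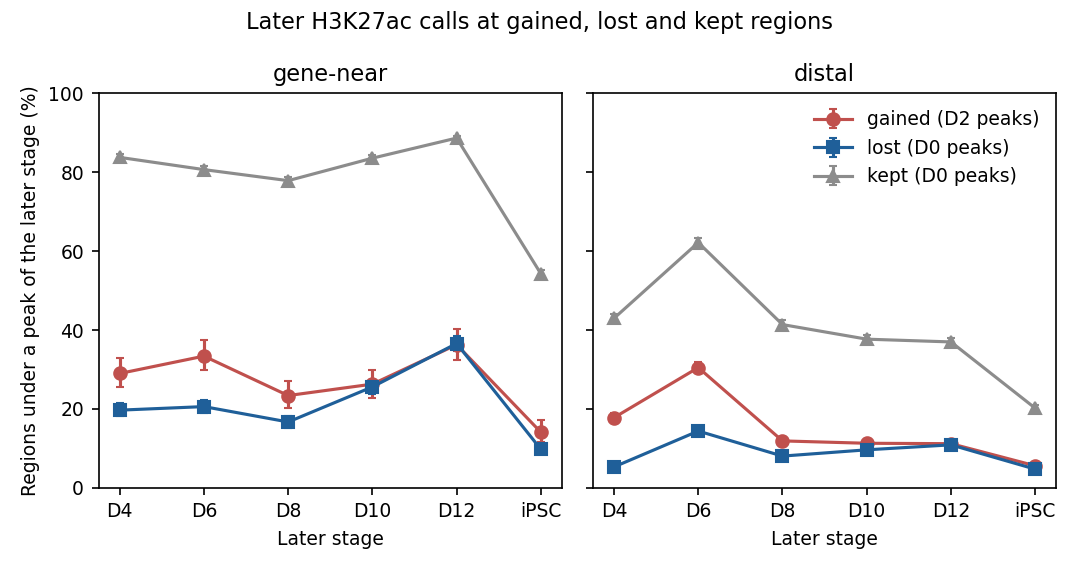
Share of gained (red, D2 peaks), lost (blue, D0 peaks) and kept (grey, D0 peaks) regions under an H3K27ac peak of each later stage (%, vertical axes), for gene-near (left) and distal (right) regions; error bars are 95% Wilson intervals. Gained distal regions stand above lost ones at D4 (17.8% against 5.31%) and D6 (30.5% against 14.4%) and meet them at D12 (11.2% and 10.9%).

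Gained and lost starts held fewer CpGs and ETS strings than kept starts, and lay close to each other. Over 300 bases around 21238 gene starts of 17469 genes, the median number of CpGs was 15 at gained, 16.0 at lost and 22.0 at kept starts, and 3.00 at starts with no call at either stage. The ETS string CCGGAAG was held by 6.09% of gained, 7.38% of lost and 20.3% of kept promoters. The intervals of gained and lost promoters overlapped (4.13 to 8.90 and 6.21 to 8.75). In the strongest class of D0 peaks the median was 17.0 CpGs at lost and 23.0 at kept starts, and the ETS shares were 7.44% and 22.7%. In the weakest class the medians were 13.0 and 17.0 CpGs, and the ETS shares 4.26% and 7.64%, with overlapping intervals (2.51 to 7.15 and 4.43 to 12.9). The TEAD string GGAATG was held by 11.9% of gained, 14.1% of lost and 11.0% of kept promoters, and the AP-1 string TGANTCA by 6.85%, 6.95% and 4.29%. Sequences of distal peaks were not searched.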

How the data were processed

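CUT&Tag of H3K27ac was labelled with 2 libraries per stage, and the authors deposited 1 peak list per stage. Per the submitters' processing notes the tools included MACS2 2.1.2, Bowtie2 2.2.5, fastp 0.20.1 and deepTools 3.4.3, with mm10 as the build. The sources used here do not give whether libraries were pooled or a control was used. In the deposited lists each peak carries the authors' fold enrichment, which is a ratio of summit pileup to local background. The authors' lists also hold a −log10 p and a −log10 q for each peak.

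Peaks were compared by overlap of at least 1 bp on chromosomes 1 to 19, X and Y, leaving out 18 peaks of D2 and 25 of D0 on other sequences. For the equal-length comparison the longer list was cut by −log10 p, which also ranked peaks into strength classes. With no read totals in the lists, pileup and background were solved from the fold enrichment and p-value, within 0.01 on the −log10 scale for 99.93% of D2 and 99.94% of D0 peaks. The background given for a list is its most common value.

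RefSeq (GRCm38.p6) gave 21887 protein-coding genes with 1 position each. A gene-end peak lay within 1.0 kb of either end, since that table has no transcript starts. Annotated starts came from the RefSeq promoter table, which has 17492 of these genes. Motifs were searched on both strands. The members and the 31 gene lists were chosen with earlier results of these data known, and 1 listed name (Mx1) had no match. Named in the text are list members, the 10 genes that gained and the 10 that lost a call with the highest fold, and the 10 genes nearest to the most gained and to the most lost distal peaks. Results for some of these genes are not reported here. Shares have 95% intervals (Wilson, or exact Clopper-Pearson for gene lists). The overlap step was tested on simulated lists, and the gene-window step was not tested. Python 3.11.15, pandas 2.3.3, numpy 2.4.6, scipy 1.17.1 and matplotlib 3.10.9 were used.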

Additional observations from a re-analysis of the deposited data

How the results depend on the processing

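No paired analysis was possible because each stage has 1 list and its 2 libraries cannot be separated, which also meant that no library could be left out. Shares are given in the order all, gene-near and distal. Gained shares of D2 peaks (24.3%, 5.98% and 38.1% as reported) were 35.1%, 11.0% and 53.3% at equal length by −log10 p, 40.6%, 18.2% and 57.5% at equal length by fold enrichment, 10.2%, 3.09% and 24.2% with −log10 q of at least 10, and 27.4%, 7.96% and 42.0% when 50% of the shorter peak had to be shared. Lost shares of D0 peaks (54.1%, 20.2% and 69.1%) were 35.8%, 11.8% and 54.1%, then 41.4%, 11.4% and 60.8%, then 59.1%, 32.6% and 79.7%, then 56.0%, 21.9% and 71.2% under the same 4 settings. A 2.5 kb gene window gave 7.69% gene-near and 39.4% distal peaks gained, and 26.2% and 69.8% lost. Gene starts alone gave 5.16% and 36% gained, and 18% and 67.1% lost. Genes gained and lost (430 and 1737) were 884 and 1024 at equal length by −log10 p, 1603 and 964 at equal length by fold enrichment, and 208 and 3140 with −log10 q of at least 10, so the direction of the net change at genes depended on the setting. Distal shares exceeded gene-near shares in all of these settings. Autosomes alone, and leaving out peaks under 400 bp wide with a fold over 10 (chosen after seeing the data), kept every share within its interval. The cause of these shifts was not tested. A peak absent from a list may lie just under the authors' threshold, and without read counts a smaller change at kept peaks cannot be measured.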
